A study of Solanum dulcamara with 18 samples.

Results

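A set of 156 contigs was selected for lower levels in leaves under both flooding and drought and for a small mean difference with caterpillars. The contigs are assembled transcript fragments of bittersweet nightshade, Solanum dulcamara, a woody climber related to tomato and potato that grows in wet as well as dry places. Members were chosen from the raw read counts. Each count was divided by its library total and expressed as CPM (counts scaled to the same total in every library), and log2(CPM + 1) was averaged over the 3 libraries of a group. A member averaged at least 2 CPM over the 18 libraries, lay at or below -0.8 in all 4 differences of a stressed group from its control group, and had a mean herbivory difference between -0.5 and 0.5. Of 24158 contigs, 17096 reached 2 CPM and 156 of those (0.912%) met every condition. The mirror rule, with all 4 differences at or above 0.8, was met by 103 contigs.

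The study asked how drought and flooding alter the leaf response to herbivory. Greenhouse plants were flooded, droughted or watered as controls for 5 days, and this was kept up for 2 more days while larvae of Spodoptera exigua, the beet armyworm, fed for 48 h or were absent. The 6 groups were flooded infested, droughted infested, control infested, flooded uninfested, droughted uninfested and control uninfested leaves, all of the same species and with no other agent named. Each group had 3 libraries, which the series design calls biological replicates; whether a library pooled several plants was not stated.

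Drought lowers the water that roots can take up, and the hormone abscisic acid then closes the stomata of the leaf. Flooding cuts off oxygen from the roots, and ethylene gathers in the waterlogged tissue; stomatal closure and slower growth of the shoot are known from flooded plants too. Chewing by caterpillars sets off jasmonate signalling and the making of defence compounds. The files did not pair contigs with gene names, and the reference gene table held 0 of the 24158 contig IDs. The members are therefore given by contig ID and length, their functions are not stated, and the leaf label was not checked against marker genes.

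Libraries held 6717218 to 16056241 reads. All 156 members passed the filter on low counts and were among the 20170 contigs tested with edgeR. In each of the 18 pairs of replicate libraries the counts differed by more than sampling noise, with a chi-square per degree of freedom of 7.27 to 42.6. Library totals placed the median contig of at least 2 CPM between 0.0697 and 0.129 above 0 in the 4 stress differences, so the members' differences were that much larger against the typical contig. Scaling by the trimmed mean of M-values (TMM) in edgeR brought the median over all tested contigs to between -0.00298 and 0.0240 in the same comparisons.

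The members took up a smaller share of reads in each stressed group. This was the quantity the selection acted on and is given as a description. In flooded infested leaves the members took 0.790%, 0.510% and 0.961% of the reads, in droughted infested leaves 1.004%, 1.22% and 1.19%, and in control infested leaves 2.40%, 2.20% and 2.86%. In flooded uninfested leaves they took 1.01%, 0.924% and 0.860%, in droughted uninfested leaves 1.18%, 1.11% and 1.33%, and in control uninfested leaves 3.11%, 2.64% and 2.45%. Every flooded library lay below every droughted library of the same insect treatment, and every control library lay above both. In leaf tissue measured in bulk, fewer cells of a type and less RNA per cell cannot be told apart.

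**Figure D1:**
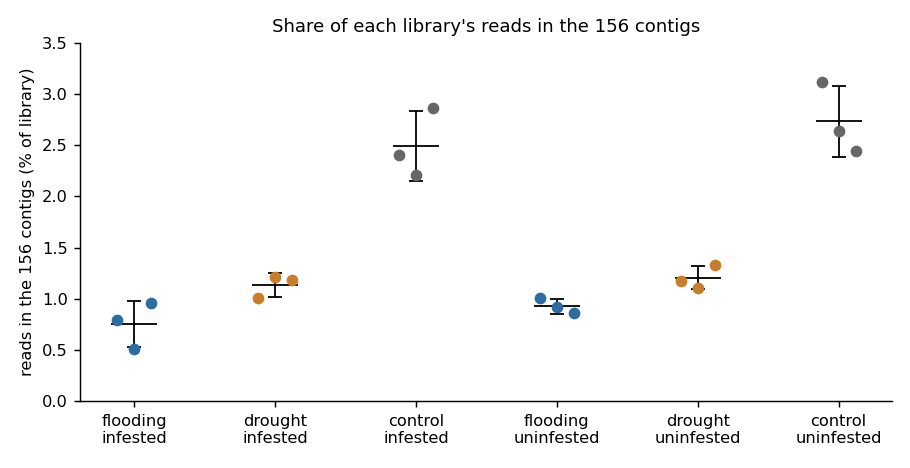
Share of each library's reads, in percent, that fell in the 156 contigs. Points are libraries, bars are the mean and SD of 3 libraries, and the groups are flooding, drought and control with and without caterpillars. The 6 control libraries sit between 2.20% and 3.11%, and the 12 stressed libraries between 0.510% and 1.33%.

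Group means of the members, which the selection used, were lowest under flooding more often than under drought. The median member had a group mean of 12.9 CPM in flooded infested leaves, 17.7 CPM in droughted infested leaves and 46.1 CPM in control infested leaves. In uninfested leaves the medians were 15.2 CPM under flooding, 18.3 CPM under drought and 50.8 CPM in controls. The lowest of the 6 group means fell in flooded infested leaves for 70 members, in flooded uninfested leaves for 42, in droughted infested leaves for 23 and in droughted uninfested leaves for 21. The highest fell in control infested leaves for 70 members and in control uninfested leaves for 86. The order of groups over all contigs was not counted, so this order is not read as particular to the members.

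On the log2(CPM + 1) scale of the selection, the flooding difference from control ran from -4.22 to -0.80 in infested leaves, with a median of -1.56, and from -4.41 to -0.81 in uninfested leaves, with a median of -1.45. The drought difference from control ran from -2.95 to -0.80 in infested leaves, with a median of -1.17, and from -2.78 to -0.80 in uninfested leaves, with a median of -1.31. In all 4 differences at once, 87 members lay at or below -1 and 8 at or below -2. The upper end of each range is set by the limit, whereas the lower end shows how far the deepest members went.

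In the edgeR model of all libraries, 148 members were called lower (adjusted p under 0.05) in flooded infested leaves than in control infested leaves, where 8.68% of all tested contigs were called lower. For drought in infested leaves the count was 111, against 2.89% of all contigs. In uninfested leaves 149 members were called lower under flooding, against 10.1% of all contigs, and 144 under drought, against 8.68%. These contrasts chose the members, so the counts only show which of them pass the model's threshold.

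The selection also acted on these libraries, so their separation is given as a description from which nothing is read. The 3 libraries of a stressed group all lay below the 3 control libraries for 152 members under flooding in infested leaves (12.6% of all tested contigs), for 151 under drought in infested leaves (10.6%), for 153 under flooding in uninfested leaves (12.6%) and for 151 under drought in uninfested leaves (12.9%).

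**Figure D2:**
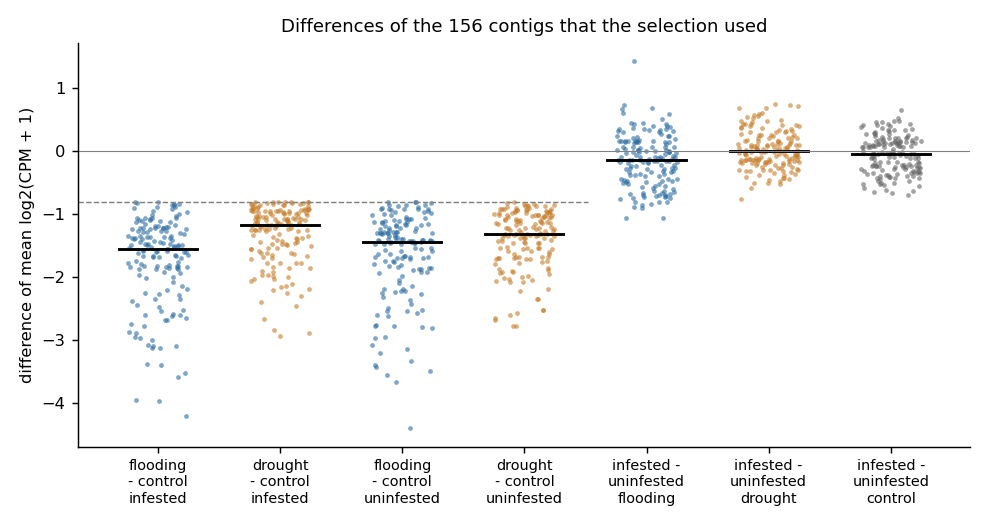
Differences of group means of log2(CPM + 1) for each of the 156 contigs, with 1 point per contig and a black line at the median. The dashed line marks the limit of -0.8 on the 4 stress differences. Medians are -1.56 and -1.17 for flooding and drought in infested leaves, -1.45 and -1.31 in uninfested leaves, and between -0.13 and -0.0032 for the 3 herbivory differences, for which the selection limited only the mean.

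The members with the deepest average decline were comp1670_c0_seq1 (2076 bases) and comp262_c0_seq1 (1254 bases). Contig comp1670_c0_seq1 had 8.78, 9.48 and 18.6 CPM in flooded infested leaves, 34.6, 34.9 and 41.5 CPM in droughted infested leaves and 258, 176 and 171 CPM in control infested leaves. In uninfested leaves it had 12.9, 7.02 and 5.18 CPM under flooding, 33.8, 28.7 and 47.7 CPM under drought and 225, 152 and 190.5 CPM in controls. The 3 water treatments did not overlap, and the order from flooding to drought to control was the same with and without caterpillars.

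Contig comp262_c0_seq1 was low under both stresses. It had 1.04, 2.79 and 4.84 CPM in flooded infested leaves, 6.22, 9.14 and 9.83 CPM in droughted infested leaves and 98.2, 50.2 and 56.3 CPM in control infested leaves. Without caterpillars it had 3.87, 3.47 and 2.72 CPM under flooding, 6.96, 9.73 and 10.8 CPM under drought and 55.0, 39.0 and 58.8 CPM in controls. Its flooded libraries were below its droughted libraries in both insect treatments.

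The members with the highest level per kilobase of contig were comp105_c0_seq1 (743 bases, 1324 CPM per kilobase over the 18 libraries) and comp570_c0_seq1 (755 bases, 1128 CPM per kilobase). Contig comp105_c0_seq1 had 283, 182 and 367 CPM in flooded infested leaves, 532, 904 and 887 CPM in droughted infested leaves and 1340.0, 1148 and 2173 CPM in control infested leaves. Uninfested, it had 455, 712 and 370.2 CPM under flooding, 837, 792 and 694 CPM under drought and 2601, 1889 and 1544 CPM in controls. Flooded and droughted libraries were separate in infested leaves and overlapped in uninfested ones.

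Contig comp570_c0_seq1 had 849, 506 and 872 CPM in flooded infested leaves, 801, 672 and 525 CPM in droughted infested leaves and 1239, 1296 and 1380.5 CPM in control infested leaves. For this contig uninfested leaves had 662, 479 and 719 CPM under flooding, 504, 719 and 715 CPM under drought and 1124, 1218 and 1044 CPM in controls. Here the stressed groups overlapped with one another and were all below the controls, with no order between flooding and drought.

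Among the 60 members whose level per kilobase was in the top 25% of contigs, those with the least spread within groups were comp718_c0_seq1 (649 bases) and comp2977_c0_seq1, at 5738 bases the longest member. Contig comp718_c0_seq1 averaged 20.2 ± 2.07 CPM in flooded infested leaves, 24.6 ± 3.86 CPM in droughted infested leaves and 45.7 ± 9.09 CPM in control infested leaves (SD, n = 3 each). In uninfested leaves it averaged 24.6 ± 2.37 CPM under flooding, 26.8 ± 0.728 CPM under drought and 53.4 ± 4.36 CPM in controls (SD, n = 3 each). Contig comp2977_c0_seq1 averaged 163 ± 22.04 CPM in flooded infested leaves, 154 ± 18.5 CPM in droughted infested leaves and 352 ± 22.7 CPM in control infested leaves (SD, n = 3 each). Without caterpillars it averaged 205 ± 39.6 CPM under flooding, 195 ± 18.0 CPM under drought and 356 ± 23.0 CPM in controls (SD, n = 3 each). For both contigs the stressed libraries lay below every control library of the same insect treatment.

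At the limit of -0.8, the members nearest inside were comp6398_c0_seq1 (1908 bases), whose smallest decline was -0.8008, and comp4693_c0_seq1 (1155 bases), at -0.8014. Nearest outside were comp3002_c0_seq1 (983 bases), at -0.7919, and comp8582_c0_seq1 (749 bases), at -0.7912. These 2 averaged 3.95 and 4.77 CPM, where adding 1 to CPM shrinks the difference. Among the 4 stress contrasts in edgeR, their smallest log2 declines were -1.108 and -0.907. Those of comp6398_c0_seq1 and comp4693_c0_seq1 were -0.964 and -0.886, so lying outside the limit does not mean a smaller fold. Contig comp6398_c0_seq1 averaged 21.9 ± 4.41 CPM in flooded infested leaves, 25.8 ± 2.44 CPM in droughted infested leaves and 57.2 ± 9.17 CPM in control infested leaves (SD, n = 3 each). Contig comp8582_c0_seq1 averaged 3.81 ± 2.35 CPM in flooded infested leaves, 3.28 ± 0.978 CPM in droughted infested leaves and 6.66 ± 1.85 CPM in control infested leaves (SD, n = 3 each). On the mean herbivory difference the nearest values inside were -0.4914 and 0.492 and the nearest outside -0.5095 and 0.5123. On mean CPM they were 2.17 inside and 1.98 outside.

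**Figure D3:**
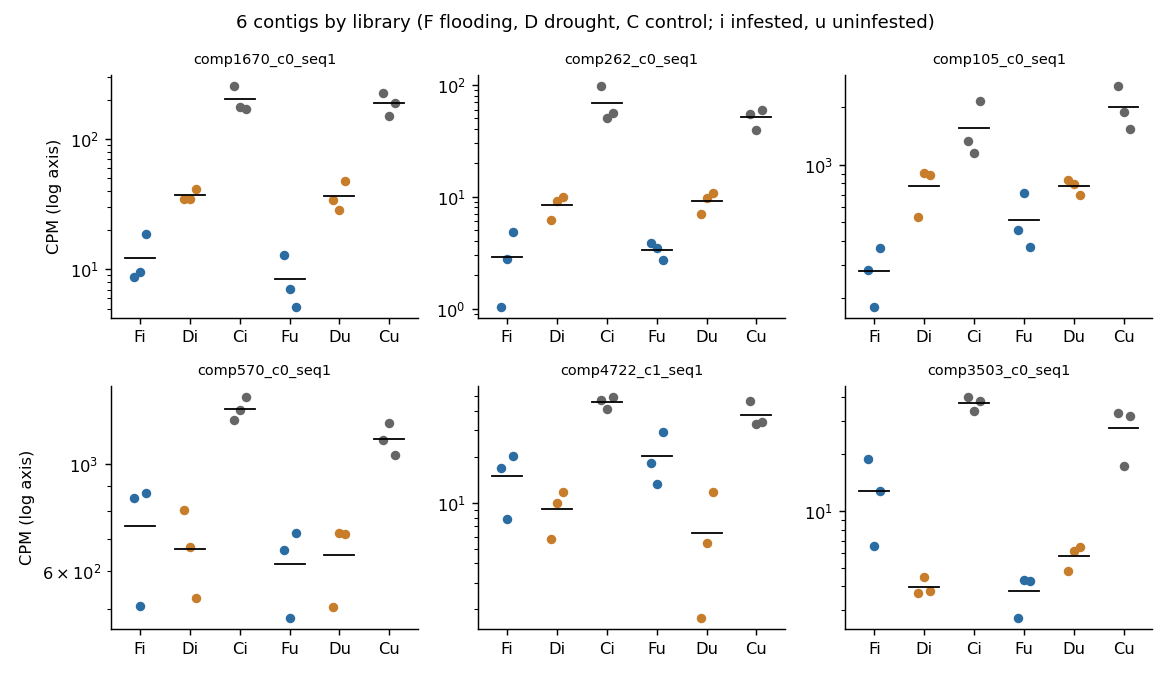
CPM of 6 contigs in every library on a log axis, with a line at the mean of each group of 3 (F flooding, D drought, C control; i infested, u uninfested). The contig comp1670_c0_seq1 steps up in both insect treatments, with means of 12.3, 37.0 and 202 CPM under flooding, drought and control in infested leaves. In comp3503_c0_seq1 the flooded leaves exceed the droughted leaves when infested and fall below them when uninfested.

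Flooding was compared with drought directly, a contrast that involves no control library. The selection put both stressed groups below the control without setting which was lower, but it used the same flooded and droughted libraries. Shares over all contigs carry no such condition and stand beside the members' values as a description. Over all tested contigs, too, calls against control were more frequent under flooding than under drought. Lower calls were 8.68% against 2.89% in infested leaves and, closer together, 10.1% against 8.68% in uninfested leaves. In infested leaves, 6 members were lower under flooding than under drought (adjusted p under 0.05), where 0.481% of all tested contigs were called lower, and 1 was higher, where 0.322% were called higher. In uninfested leaves, 13 members were lower, against 4.76% of all contigs, and 2 were higher, against 2.93%. With 1 library left out, these counts ran from 0 to 19 in infested leaves and from 5 to 21 in uninfested leaves.

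Most members leaned the same way without passing the test. The log2 fold change of flooding over drought had a median of -0.35 over the members in infested leaves and 0.0088 over all tested contigs, and 120 members (76.9%) lay below 0, against 48.8% of all contigs. In uninfested leaves the median was -0.26 over the members and 0.0080 over all contigs, and 107 members (68.6%) lay below 0, against 48.8%. The members ranged from -4.06 to 1.63 in infested leaves and from -2.60 to 1.70 in uninfested leaves. The uninfested median depended on 1 library, since without droughted uninfested replicate 3 it was -0.016.

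By library, all 3 flooded infested values lay below all 3 droughted infested values for 52 members (33.3%), which 8.77% of all tested contigs showed, and above them for 2 members, which 12% of all contigs showed. In uninfested leaves the flooded values were all lower for 33 members (21.2%), against 11.9% of contigs, and all higher for 8 members (5.13%), against 11.6%.

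The contrasts in infested and in uninfested leaves share no library, but the selection used the libraries of both and set limits in both. The values over all contigs carry no such condition, so likeness of the contrasts among members is not an independent replication. Across the 156 members their log2 fold changes had a Pearson correlation of 0.638 and a Spearman correlation of 0.712, and across all 20170 tested contigs 0.351 and 0.305. These are descriptions across contigs, which share libraries and are not independent replicates. Flooding was below drought in both insect treatments for 94 members (60.3%) and above it in both for 23 (14.7%), against 29.1% and 31.5% of all tested contigs. All 6 members called lower in infested leaves had a negative value in uninfested leaves, and all 13 called lower in uninfested leaves had a negative value in infested leaves. Of the 2 members called higher in uninfested leaves, 1 had a positive value in infested leaves. The 1 member called higher in infested leaves had a negative value in uninfested leaves. The same counts among all called contigs were not made, so nothing is read from this likeness of sign. The flooded libraries lay wholly below the droughted libraries in both insect treatments for 28 members (17.9%), against 3.28% of all contigs, and wholly above in both for 0 members, against 3.18%.

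**Figure D4:**
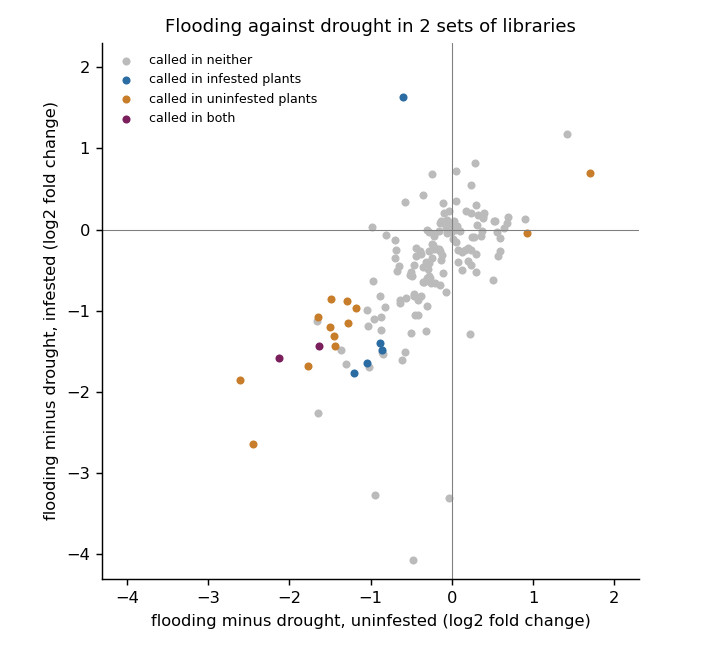
Log2 fold change of flooding over drought for each of the 156 contigs, in uninfested leaves on the horizontal axis and infested leaves on the vertical axis, coloured by whether edgeR called the contig in neither, either or both. Below 0 on both axes lie 94 contigs, and above 0 on both lie 23.

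Of all members, comp1670_c0_seq1 and comp7594_c0_seq1 (1004 bases, chosen after its values were seen) were called lower under flooding than under drought in both insect treatments. The log2 fold change of comp1670_c0_seq1 was -1.58 ± 0.33 (SE, edgeR adjusted p = 0.0393) in infested leaves and -2.12 ± 0.34 (SE, edgeR adjusted p = 0.00162) in uninfested leaves. Its call in infested leaves was lost when any of 7 of the 18 libraries was left out, with adjusted p up to 0.154, and its call in uninfested leaves held with every library left out in turn.

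Contig comp7594_c0_seq1 had 1.04, 2.23 and 3.41 CPM in flooded infested leaves, 6.41, 7.67 and 4.97 CPM in droughted infested leaves and 32.4, 21.8 and 23.2 CPM in control infested leaves. It had 2.91, 1.58 and 1.89 CPM in flooded uninfested leaves, 5.74, 5.27 and 8.90 CPM in droughted uninfested leaves and 24.2, 20.6 and 24.5 CPM in control uninfested leaves. The 3 water treatments were separate in both insect treatments. Flooding over drought was -1.44 ± 0.32 (SE, edgeR adjusted p = 0.0496) in infested leaves, a call lost without any of 15 libraries. In uninfested leaves it was -1.63 ± 0.32 (SE, edgeR adjusted p = 0.00488), which held with each library left out.

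In uninfested leaves the called members with the most negative values at a level of at least 8 CPM were comp1670_c0_seq1 and comp361_c0_seq1 (1119 bases). Contig comp361_c0_seq1 had 26.4, 9.71 and 25.3 CPM in flooded infested leaves, 31.7, 64.9 and 96.6 CPM in droughted infested leaves and 207, 175 and 366 CPM in control infested leaves. It had 16.6, 28.005 and 29.0 CPM in flooded uninfested leaves, 103, 79.4 and 69.8 CPM in droughted uninfested leaves and 399, 259 and 186 CPM in control uninfested leaves. No flooded library reached a droughted one of the same insect treatment. Flooding over drought was -1.68 ± 0.47 (SE, edgeR adjusted p = 0.112) in infested leaves and -1.77 ± 0.47 (SE, edgeR adjusted p = 0.0321) in uninfested leaves. The uninfested call was lost without any flooded uninfested library or without droughted uninfested replicate 1 or 2, with adjusted p up to 0.125.

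For comp262_c0_seq1 the same contrast was -1.44 ± 0.39 (SE, edgeR adjusted p = 0.0971) in infested leaves and -1.43 ± 0.37 (SE, edgeR adjusted p = 0.0265) in uninfested leaves, and the uninfested call held in 13 of 18 fits with a library left out. The abundant comp105_c0_seq1 had -1.51 ± 0.35 (SE, edgeR adjusted p = 0.0554) in infested leaves and -0.58 ± 0.34 (SE, edgeR adjusted p = 0.352) in uninfested leaves, so neither passed. For comp570_c0_seq1 the values were 0.12 ± 0.22 (SE, edgeR adjusted p = 0.837) in infested leaves and -0.06 ± 0.22 (SE, edgeR adjusted p = 0.917) in uninfested leaves, and their signs turned with single libraries left out.

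In infested leaves the called members with the most negative values at a level of at least 8 CPM were comp109_c1_seq1 (663 bases) and comp172_c0_seq1 (1140 bases). Contig comp109_c1_seq1 had 85.3, 39.4 and 97.0 CPM in flooded infested leaves, 152, 287 and 299 CPM in droughted infested leaves and 389, 342 and 581 CPM in control infested leaves. Flooding over drought was -1.76 ± 0.39 (SE, edgeR adjusted p = 0.049) there and -1.21 ± 0.38 (SE, edgeR adjusted p = 0.0671) in uninfested leaves. Contig comp172_c0_seq1 had 177, 82.2 and 199.9 CPM in flooded infested leaves, 316, 526 and 565 CPM in droughted infested leaves and 861, 719.6 and 1260.1 CPM in control infested leaves. Its flooding over drought was -1.64 ± 0.36 (SE, edgeR adjusted p = 0.0489) in infested leaves and -1.04 ± 0.36 (SE, edgeR adjusted p = 0.0911) in uninfested leaves. Flooded and droughted infested libraries did not overlap in either contig, yet both calls sat at the threshold. The call of comp109_c1_seq1 was lost without any of 12 libraries and that of comp172_c0_seq1 without any of 11, with adjusted p up to 0.162 for each.

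The members called in the other direction were few. In infested leaves comp4722_c1_seq1 (988 bases) had 17.0, 7.81 and 20.1 CPM under flooding, 5.75, 9.93 and 11.8 CPM under drought and 47.3, 41.1 and 49.4 CPM in controls. In uninfested leaves it had 18.2, 13.3 and 29.0 CPM under flooding, 1.76, 5.43 and 11.7 CPM under drought and 46.7, 32.6 and 33.9 CPM in controls. Flooded and droughted libraries overlapped in infested leaves, and every flooded one lay above every droughted one in uninfested leaves. Flooding over drought was 0.69 ± 0.49 (SE, edgeR adjusted p = 0.545) in infested leaves and 1.70 ± 0.49 (SE, edgeR adjusted p = 0.048) in uninfested leaves, a call lost without any of 15 libraries.

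Contig comp17086_c0_seq1 (1791 bases) had 7.29, 8.14 and 13.1 CPM in flooded infested leaves, 9.33, 12.4 and 7.69 CPM in droughted infested leaves and 17.2, 14.6 and 22.6 CPM in control infested leaves. Among uninfested leaves it had 14.1, 17.1 and 14.8 CPM under flooding, 7.34, 6.94 and 10.2 CPM under drought and 23.9, 34.9 and 28.03 CPM in controls. Flooded leaves overlapped droughted leaves when infested and exceeded them without overlap when uninfested. Flooding over drought was -0.05 ± 0.26 (SE, edgeR adjusted p = 0.952) in infested leaves and 0.93 ± 0.25 (SE, edgeR adjusted p = 0.0336) in uninfested leaves. The uninfested call was lost without flooded uninfested replicate 1 or 2 or droughted uninfested replicate 1 or 2, with adjusted p up to 0.131.

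In infested leaves comp3503_c0_seq1 (510 bases, the shortest member) was the member higher under flooding. It had 18.9, 6.58 and 12.8 CPM in flooded infested leaves, 3.67, 4.51 and 3.80 CPM in droughted infested leaves and 40.3, 33.9 and 38.3 CPM in control infested leaves. Without caterpillars it had 2.73, 4.34 and 4.28 CPM under flooding, 4.82, 6.14 and 6.45 CPM under drought and 33.3, 17.4 and 31.9 CPM in controls. Flooded libraries were all above droughted ones in infested leaves and all below them in uninfested leaves. Flooding over drought was 1.63 ± 0.33 (SE, edgeR adjusted p = 0.0354) in infested leaves and -0.60 ± 0.34 (SE, edgeR adjusted p = 0.326) in uninfested leaves. Leaving out flooded infested replicate 1 or 3 or any droughted infested library ended the infested call, with adjusted p up to 0.14.

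Whether herbivory altered the response to a water treatment was estimated by 3 interactions, and edgeR called 0 members in each. The selection had already set limits on the stress differences in infested and in uninfested leaves and on the mean herbivory difference. Contigs whose decline was lost or reversed in either insect treatment were thereby left out. The members' counts therefore cannot decide the question, and they stand beside the shares of all contigs as a description. All tested contigs gave 0 calls for drought by herbivory and for flooding by herbivory, and 0.0198% were called higher for the difference between flooding and drought in the herbivory response. At an unadjusted p under 0.05, drought by herbivory had 1 negative and 5 positive members, against 2.72% and 3.73% of all contigs. Flooding by herbivory had 2 negative and 2 positive members, against 1.03% and 2.72%, and flooding against drought had 7 negative and 1 positive member, against 4.29% and 5.41%. DESeq2 called 0 members of 30 contigs in all for drought by herbivory, 0 of 7 for flooding by herbivory and 1 of 146 for flooding against drought. The counts also do not show that the responses were equal. Single interactions were estimated loosely, with an SE of 0.69 for comp4722_c1_seq1 in flooding against drought. Interaction values of members ranged from -0.91 to 1.85 for drought, -2.53 to 1.71 for flooding and -3.58 to 2.23 for flooding against drought. These ranges include estimation error.

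The member with the smallest p for drought by herbivory was comp17086_c0_seq1, with a log2 interaction of 1.02 ± 0.35 (SE, edgeR adjusted p = 0.703). The member with the smallest p in both other interactions was comp3503_c0_seq1. Its flooding by herbivory interaction was 1.31 ± 0.43 (SE, edgeR adjusted p = 1.0), and its flooding against drought interaction was 2.23 ± 0.48 (SE, edgeR adjusted p = 0.145). DESeq2 gave an adjusted p of 0.00157 for the last of these.

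Herbivory entered the selection through the mean of 3 differences, which ran from -0.49 to 0.49 over the members with a median of -0.05, close to the -0.05 of all contigs of at least 2 CPM. The single differences could be larger, but the limit on their mean also held them down. Fewer calls among the members than over all contigs therefore follow from the selection, and the counts below are a description. The infested minus uninfested difference ran from -1.06 to 1.44 under flooding (median -0.13), from -0.75 to 0.75 under drought (median -0.0032) and from -0.70 to 0.66 in controls (median -0.037). In edgeR 3 members were called higher in infested than in uninfested flooded leaves, where 9.58% of all contigs were called higher, and 0 lower, where 5.79% were called lower. Droughted leaves gave 0 calls among the members, against 2.87% higher and 0.342% lower over all contigs, and control leaves 0, against 6.61% higher and 3.92% lower. At an unadjusted p under 0.05, 7 members were higher and 16 lower in infested flooded leaves, against 16.4% and 13.4% of all contigs. In droughted leaves 8 were higher and 2 lower, against 9.84% and 4.76%, and in control leaves 3 were higher and 4 lower, against 13.4% and 13.2%.

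The 3 members called higher with caterpillars in flooded leaves were comp3503_c0_seq1, comp15253_c0_seq1 (1237 bases) and comp115_c1_seq1 (1029 bases), all chosen after their values were seen. Infested over uninfested, the log2 fold changes in flooded leaves were 1.77 ± 0.33 (SE, edgeR adjusted p = 0.00196) for comp3503_c0_seq1, 1.09 ± 0.32 (SE, edgeR adjusted p = 0.0295) for comp15253_c0_seq1 and 0.81 ± 0.24 (SE, edgeR adjusted p = 0.0347) for comp115_c1_seq1. Contig comp15253_c0_seq1 had 1.49, 2.01 and 3.63 CPM in infested flooded leaves, against 1.67, 0.710 and 1.23 CPM in uninfested flooded leaves, with overlap of the lowest infested library. Contig comp115_c1_seq1 had 30.7, 18.5 and 36.3 CPM in infested flooded leaves, against 14.5, 15.5 and 20.7 CPM in uninfested flooded leaves, again with overlap.

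The median length of the members was 1191 bases, with a range from 510 to 5738, against a median of 1342 bases for contigs of at least 2 CPM. Their median level was 21.0 CPM per kilobase against 14.6 for all contigs at that level, and 60 members (38.5%) stood among the 25% of contigs with the highest level. The lower quartile was 5.88 against 6.60 CPM per kilobase and the upper quartile 57.0 against 31.7, so the members were also more widely spread. Adding 1 to CPM in the selection shrinks differences at low levels, so level was not free of the selection. Members from assembly components with more than 1 contig numbered 3 (1.92%), against 1.33% of contigs at that level, and no component held more than 1 member. Division of reads between near-identical contigs of 1 component could therefore touch those 3, while copies of a gene assembled as separate components cannot be seen without sequences. All 156 were kept in the authors' second, normalised table, as were 99.8% of contigs of at least 2 CPM.

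The members varied more between replicates than all contigs of at least 2 CPM, a set that includes them, and did so together. The selection acted on group means of these same libraries, and no set chosen by a like rule was compared. The values are therefore a description and do not show a trait particular to the members. The median SD of log2 values within a group was 0.494 for the members against 0.186 for contigs of at least 2 CPM in flooded infested leaves, 0.255 against 0.155 in droughted infested leaves and 0.262 against 0.172 in control infested leaves. In uninfested leaves it was 0.392 against 0.200 under flooding, 0.344 against 0.157 under drought and 0.205 against 0.156 in controls. After subtraction of group means, the median correlation between pairs of members over the 18 libraries was 0.326 with 81.9% of pairs positive, against 0.0381 and 54.1% for contigs of at least 2 CPM.

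Several libraries lay to one side of their group mean for most members. In flooded infested replicate 2, 141 of 156 members lay below their group mean, with a median deviation of -0.43 on the log2 scale, whereas in replicate 3 of the same group 7 lay below it and the median deviation was 0.42. In droughted uninfested replicate 3, 29 members lay below their group mean and the median deviation was 0.36. The part of these libraries in the flooding over drought contrasts can be given as values. Without flooded infested replicate 2 the infested median was -0.17, with 0 members called lower and 1 higher of 45 contigs called in all. Without flooded infested replicate 3 it was -0.66, with 19 members called lower and 0 higher of 266 contigs in all, against 7 members of 162 contigs with all libraries. Calls over all contigs moved in the same direction.

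Grouping the members by their deviations from group means (average linkage on 1 minus the correlation, 4 groups, a number chosen after seeing the values) gave sets of 109 and 45 contigs and 2 single contigs. No test was made on these sets. Within them the median pairwise correlation was 0.511 and 0.405, and between them 0.12. In flooded uninfested replicate 1 the 109 contigs had a median deviation of 0.31 and the 45 contigs -0.18, and in replicate 2 of that group -0.32 and 0.27. Both sets were low in flooded infested replicate 2, at -0.42 and -0.49.

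The contigs of a set deviate together over the same 18 libraries, so they share the error of the group means, and the values that follow describe the sets without a test of their difference. Of the 45 contigs, 41 (91.1%) had lower levels under flooding than under drought in infested leaves, with a median log2 fold change of -0.87, and 35 (77.8%) in uninfested leaves, with a median of -0.38. For the 109 contigs the shares were 71.6% and 66.1% and the medians -0.25 and -0.21. The mean herbivory difference had a median of -0.35 in the 45 contigs and -0.002 in the 109, both inside the limits of the selection. The median level was 29.9 CPM per kilobase in the 45 contigs and 19.4 in the 109. Contigs comp105_c0_seq1, comp361_c0_seq1, comp109_c1_seq1 and comp172_c0_seq1 belonged to the 45, and comp1670_c0_seq1, comp262_c0_seq1, comp570_c0_seq1 and comp2977_c0_seq1 to the 109.

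**Figure D5:**
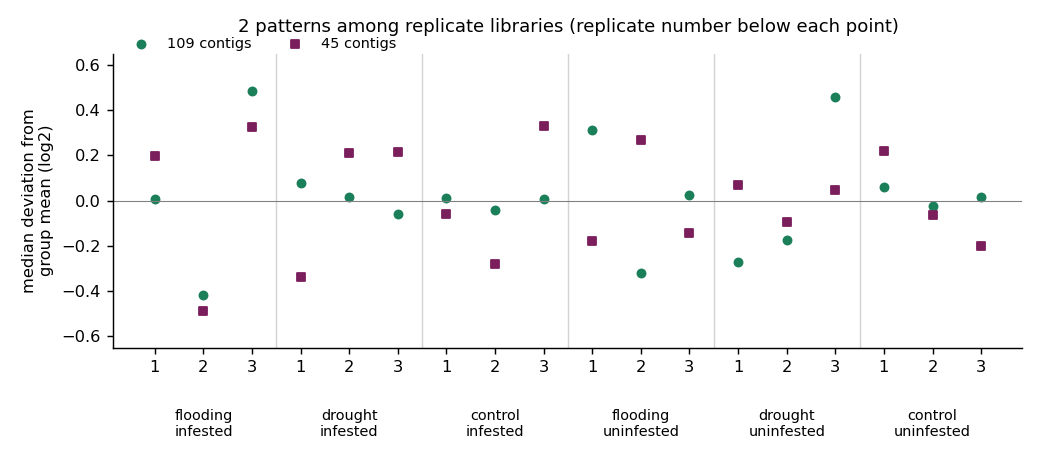
Median deviation of each library from its group mean, on the log2 scale, over the set of 109 contigs (circles) and the set of 45 contigs (squares). Libraries are ordered by group and numbered by replicate. Both sets lie low in flooded infested replicate 2, at -0.42 and -0.49, and lie on opposite sides of 0 in flooded uninfested replicates 1 and 2.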

How the data were processed

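Leaf RNA libraries were read as reads per contig. The first deposited table held raw counts for 24158 contigs, and the second deposited table a normalised signal per contig from which, going by its title, contigs classed as noise are missing. The submitters' processing notes name Bowtie 0.12.7 and DESeq. How contigs were assembled and reads were counted, and whether strand was used, is not given in the sources used here, so reads of antisense or overlapping transcripts could not be separated. Columns were tied to samples by the column numbers in the labels, and 0 columns belonged to no sample.

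The selection used counts over library totals. Tests ran on the raw counts of all 18 libraries with edgeR 4.0.16 in R 4.3.3 (TMM, filterByExpr with a minimum count of 10 and total of 15, robust quasi-likelihood fit, 1 mean per group, 12 residual degrees of freedom, common biological coefficient of variation 18.6%), with Benjamini-Hochberg adjustment over 20170 contigs. Adjusted p-values are from this test unless named otherwise. SE is the size of the log2 fold change over the square root of F. Levels are counts over library totals, folds are TMM-scaled, and a fitted fold of a contig with few reads is not a bound. DESeq2 1.42.0 and limma 3.58.1 (log2 of the second table plus a pseudocount of 1 or 0.1) were alternatives. A comparison of 3 against 3 libraries by exact permutation cannot go below p = 0.1 and was not used.

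Members and lists were chosen with earlier results of these data known. Named contigs were the 2 lowest by mean stress difference, the 2 highest per kilobase, the 2 most extreme called members in each direction of flooding over drought with at least 8 CPM, the member with the smallest p in each interaction without calls, the 2 nearest either side of the limit, and the 2 with the least spread among members in the top 25% of contigs by level.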

Additional observations from a re-analysis of the deposited data

Results flagged for a closer look

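Contig comp3503_c0_seq1 drew attention because its flooded libraries stood on opposite sides of its droughted libraries with and without caterpillars, although both stresses lay below control in each. All 3 flooded libraries were above all 3 droughted libraries in infested leaves (18.9, 6.58 and 12.8 CPM against 3.67, 4.51 and 3.80 CPM) and below them in uninfested leaves (2.73, 4.34 and 4.28 CPM against 4.82, 6.14 and 6.45 CPM). The difference between the contrasts was 2.23 on the log2 scale, and it missed the threshold in edgeR (adjusted p = 0.145, between 0.0299 and 0.306 with 1 library left out).

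The same contig was lower in infested than in uninfested leaves under drought and higher in control leaves (40.3, 33.9 and 38.3 CPM infested against 33.3, 17.4 and 31.9 CPM uninfested). This drought by herbivory interaction was -0.92 ± 0.45 (SE, edgeR adjusted p = 0.764) and missed the threshold too.

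Contig comp17652_c0_seq1 (2079 bases, chosen after its values were seen) had 1.70, 0.790 and 1.56 CPM in infested droughted leaves, all below the 1.76, 1.76 and 2.54 CPM of uninfested droughted leaves. In control leaves it had 8.88, 8.16 and 8.26 CPM when infested, all above the 5.49, 7.85 and 7.33 CPM of uninfested leaves. Its drought by herbivory interaction was -0.77 ± 0.44 (SE, edgeR adjusted p = 0.764), which missed the threshold. Its droughted libraries held only 7 to 28 reads of this contig. Of the 156 members, 2 had herbivory differences of opposite sign without overlap in droughted and control leaves. The share of all contigs with such differences was not counted, so nothing is read from these cases.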

How the results depend on the processing

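The selection gave 126 (without control infested replicate 3) to 165 contigs (without control infested replicate 2) with a library left out, 191 with TMM scaling (152 shared with the 156), 192 with the second table's factors (154 shared; chosen after seeing the data), 155 with log2(CPM + 0.5) (146 shared), 130 at a mean of 5 CPM, 173 with no minimum and 87 at a limit of -1. Flooding against drought in infested leaves had 7 called members of 162 called contigs, against 0 of 13 in a model of the compared groups alone, 33 of 645 by DESeq2 (32 lower, 1 higher), 11 and 12 of 170 each by limma with pseudocounts of 1 and 0.1, and 0 to 19 with a library left out (0 without flooded infested replicate 1 or droughted infested replicate 2 or 3, 1 without flooded infested replicate 2 or control uninfested replicate 2, 19 of 266 without flooded infested replicate 3, with 9 contigs called in all without droughted infested replicate 3); the median ran from -0.661 to -0.173. In uninfested leaves there were 15 of 1550, against 27 of 2111 by DESeq2 (24 lower, 3 higher) and 5 to 21 with a library left out (5 without flooded uninfested replicate 2, 8 and 9 without droughted uninfested replicates 2 and 1); the median ran from -0.404 to -0.016. The cause of these shifts was not tested. The number of called members in infested leaves is therefore weakly determined, while its median stayed negative in the settings run. The drought and flooding interactions had 0 called members in all 25 alternatives, and the flooding against drought interaction had 1 by DESeq2 and 0 to 1 with a library left out. With a library left out, comp570_c0_seq1 ran from -0.036 to 0.34 in infested and from -0.201 to 0.069 in uninfested leaves; its sign turned in infested leaves without flooded replicate 3 (-0.021) or droughted replicate 3 (-0.036), and in uninfested leaves without flooded replicate 2 (0.069), droughted replicate 2 (0.029) or droughted replicate 3 (0.007). Deviations of libraries with the same replicate number correlated between -0.422 and 0.411, and 7 of 27 matched their own number best, so the numbers were not taken to pair samples; with a replicate block, 4 members were called in infested leaves and 16 in uninfested leaves. Depth limits the members with few reads: 4 of the 156 had 0 reads in at least 1 library, and their fitted folds depend on the prior count.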
